A study of Mus musculus with 12 samples.

Results

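The circadian clock genes described here are 10 genes that encode the activators, repressors and first output factors of the daily clock: Arntl, Npas2, Clock, Nr1d1, Nr1d2, Dbp, Tef, Per1, Per2 and Per3. They were chosen by gene symbol, and are 10 of the 24296 symbols in the deposited table. The 46 transcripts that carry these symbols were used, and their values were summed to 1 value for each gene and liver. The unit is FPKM, the number of sequenced fragments scaled to the length of the transcript in kilobases and to the size of the library.

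Liver RNA was sequenced from male C57/BL6N mice in 4 groups, with 3 livers in each group. The control group is labelled WT, and whether these mice received the oil alone is not stated. Mice of the model group were injected intraperitoneally with carbon tetrachloride (CCl4), a liver toxin that causes fibrosis, in olive oil (5 mL/kg) for 8 weeks, with 2 injections in each week. The silibinin and phloridzin high-dose groups had the same CCl4 injections and, from week 5, silibinin, a milk thistle flavonolignan used in liver disease, or phloridzin, a plant flavonoid that inhibits glucose transport. The mice were kept under a regulated cycle of light and dark, and their age, the time of day at which each liver was taken and the last feeding before it are not given in the sources used here. Library sizes recovered from the values were 105 to 110 M fragments (M, mega) in the control group, 83.7 to 101 in the model group, 107 to 111 in the silibinin group and 98.5 to 105 in the phloridzin high-dose group. Across the 12 livers, the fragments behind a value ranged from 12 to 2644 for Per1, from 33 to 769 for Npas2, from 70 to 487 for Dbp and from 275 to 2514 for Per2, and counting error was largest for the lowest values of Per1 and Npas2.

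In the mammalian clock, the product of Arntl (BMAL1) pairs with CLOCK or NPAS2, binds E-box sequences and activates the Per and Cry genes, whose proteins then repress that same pair. The nuclear receptors REV-ERBα and REV-ERBβ, the products of Nr1d1 and Nr1d2, repress Arntl, Npas2 and Clock, while DBP and TEF bind D-box sequences and drive daily rhythms of many liver genes. In mouse liver the levels of Arntl and Npas2 peak at nearly the opposite time of day to those of Dbp and Nr1d1, so that the level in a single liver depends on the hour at which it was taken. Per1 and Per2 can also be induced directly by acute stimuli such as glucocorticoids.

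Each comparison asked which clock genes differed between 2 groups by more than the spread between livers. All 10 genes had a mean of at least 0.5 FPKM and were tested among 13158 genes on log2(FPKM + 1) with limma, with Benjamini-Hochberg adjustment over all genes tested, and a gene was called DE at an adjusted p under 0.05. The p-values rest on the spread between livers of the same group, pooled over all groups and drawn toward that of genes of similar level. An exact test of a single gene with 3 livers against 3 cannot go below p = 0.1. The same 3 model livers enter the comparisons with the control group, with the silibinin group and with the phloridzin high-dose group, so these comparisons are not independent of each other. In the model group relative to the control group, 34.9% of all genes tested were DE, 31.1% higher and 3.8% lower. In the silibinin group relative to the model group, 14.1% were DE, with 2.62% higher and 11.4% lower. The corresponding shares in the phloridzin high-dose group relative to the model group were 12.9% in all, 2.5% higher and 10.4% lower. Between the phloridzin high-dose group and the silibinin group, 0.0228% of genes were DE. Against the control group, 5.02% of genes were DE in the silibinin group and 7.99% in the phloridzin high-dose group.

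Only 1 of the 10 clock genes, Per2, was DE in the model group relative to the control group, and it was also the only one DE in either drug group relative to the model group. It was higher in the model livers and lower in both drug groups than in the model group. At an unadjusted p under 0.05 there were 4 clock genes in the first comparison, 3 in the silibinin group and 2 in the phloridzin high-dose group, where 45.8%, 29.2% and 27.8% of all genes tested did. The median log2 fold change of the 10 genes was 0.48 in the model group relative to the control group, beside 0.34 for all genes tested, with 7 genes higher and 3 lower. In the silibinin group relative to the model group it was -0.06, beside -0.15 for all genes, with 4 higher and 6 lower. For the phloridzin high-dose group relative to the model group the values were -0.04 and -0.11, with 5 genes on each side.

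The median shift of all genes between the model and control groups depended on scaling. After scaling the livers by median ratios it moved from 0.34 to 0.03, and the share of DE genes that were higher in the model group moved from 89.1% to 55.7%. In the drug groups relative to the model group that share moved from 18.7% to 46.2% (silibinin) and from 19.5% to 43.3% (phloridzin). Among the clock genes, Arntl (0.02), Clock (0.15) and Per3 (0.08) turned from lower to higher with silibinin, so that most were then higher. Nr1d2 turned to lower (-0.10) in the model group relative to the control group, and with phloridzin no clock gene changed direction. The medians and tallies of clock genes given above therefore hold for the unscaled values only. The scaling factors were 0.828 to 0.896 in the control livers and 1.15 to 1.18 in the model livers, and changes of clock genes are therefore given below on both scales where a call or a direction moved.

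**Figure D1:**
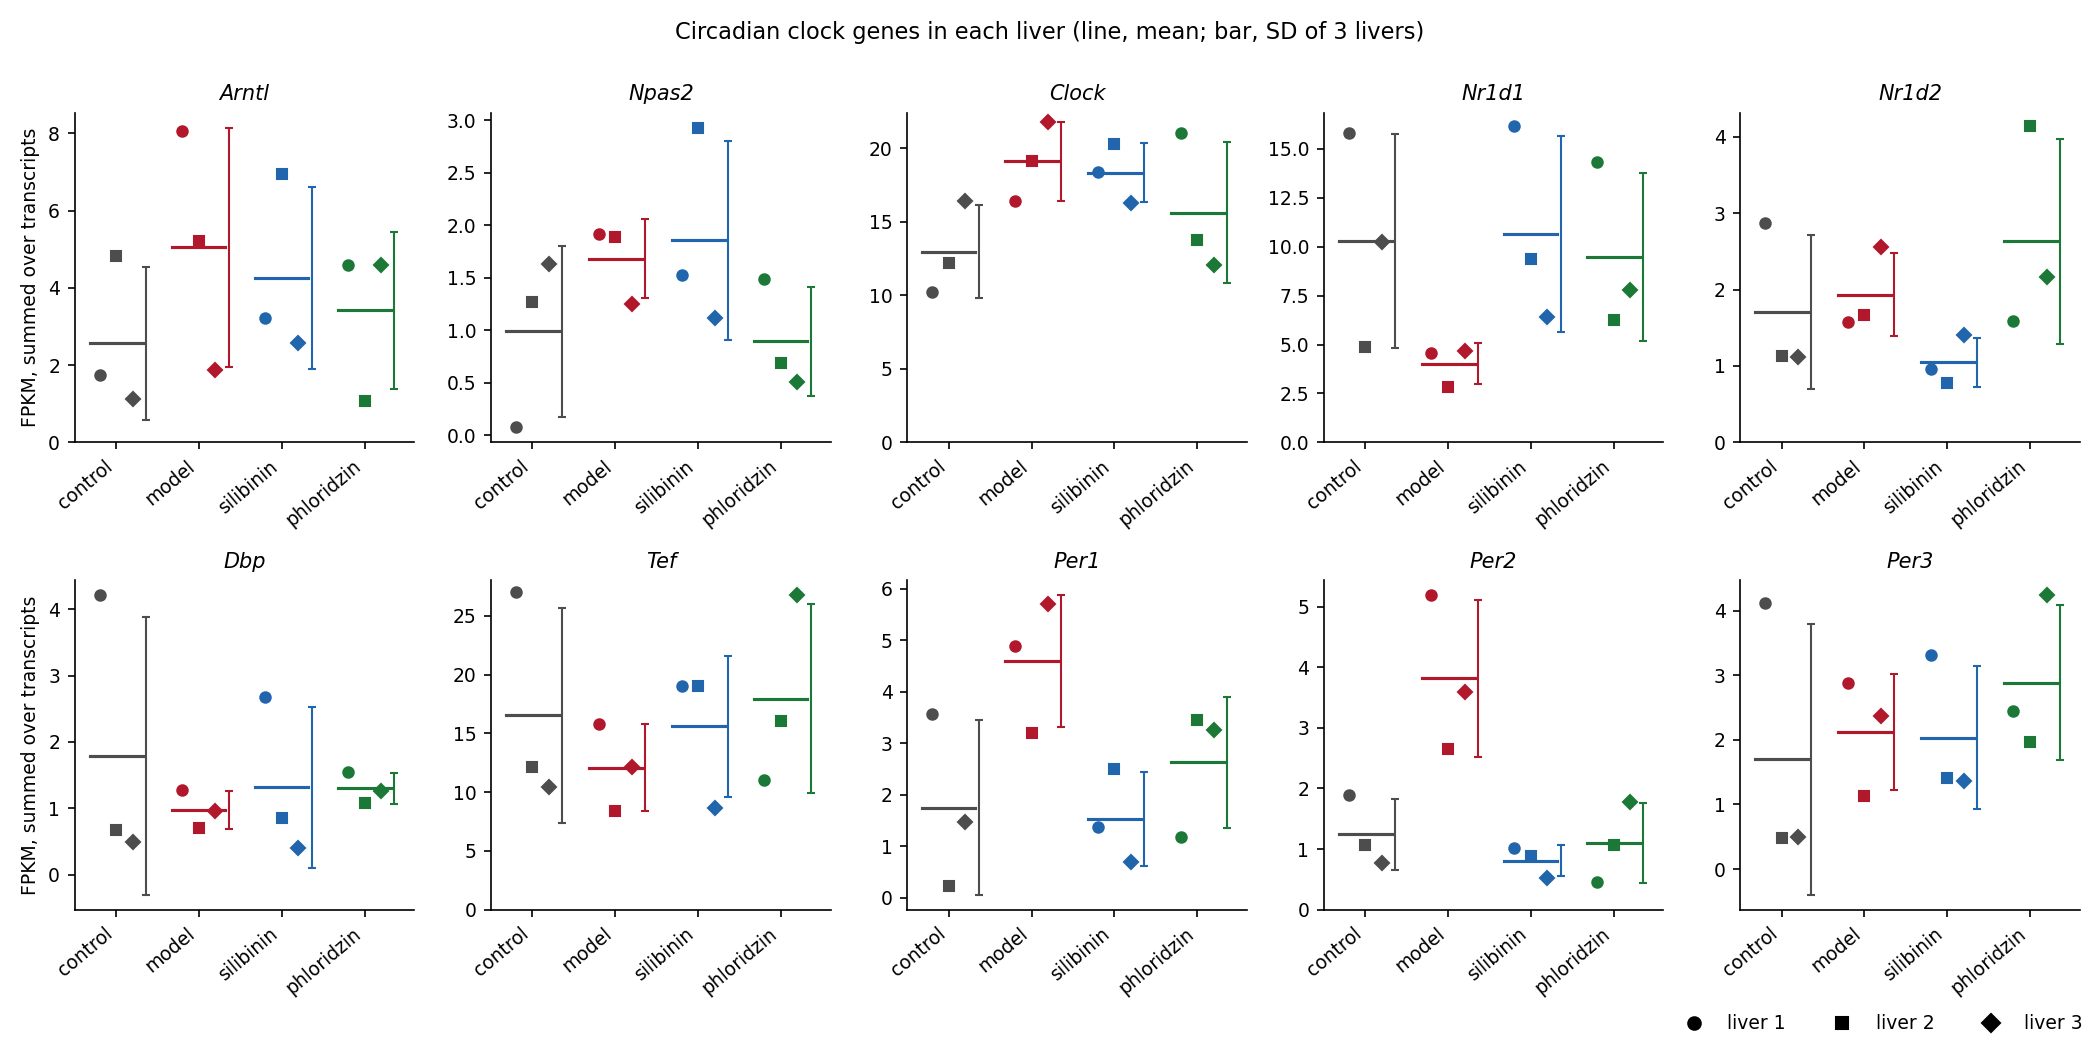
FPKM of the 10 circadian clock genes in each of the 12 livers, summed over transcripts, with 1 panel for each gene, the 4 groups on the horizontal axis, the line at the group mean and the bar at 1 SD of 3 livers. All 3 model livers lie above the other 9 for Per2 and below the other 9 for Nr1d1, while in most other panels the groups overlap.

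Per2 encodes a repressor that acts with the CRY proteins against BMAL1. Its level was 1.89, 1.06 and 0.770 FPKM in the control livers and 5.20, 2.65 and 3.599 FPKM in the model livers. In the silibinin livers it was 1.02, 0.889 and 0.518 FPKM, and in the phloridzin livers 0.462, 1.06 and 1.77 FPKM. The lowest model liver was thus above each of the 9 other livers, while the control, silibinin and phloridzin livers overlapped with each other. Group means were 3.82 ± 1.29 FPKM in the model group, 1.24 ± 0.580 in the control group, 1.10 ± 0.656 in the phloridzin high-dose group and 0.808 ± 0.258 in the silibinin group (SD, n = 3), and no test between the last 3 passed.

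Between the model and control groups, the log2 fold change of Per2 was 1.10 (SE 0.28, 95% interval 0.49 to 1.71, limma adjusted p = 0.012), higher in 3 of 3 model livers. It was -1.39 in the silibinin group relative to the model group (interval -2.00 to -0.78, limma adjusted p = 0.0085) and -1.21 in the phloridzin high-dose group (interval -1.82 to -0.60, limma adjusted p = 0.017). The drug groups differed in Per2 by 0.18 on the log2 scale (interval -0.43 to 0.79), a range that covers changes in either direction. After scaling by median ratios the difference between the model and control groups was 0.82 and no longer passed (limma adjusted p = 0.053, the highest of a range from 0.015 over the settings tried), whereas both drug comparisons still passed at 0.018 and 0.035. The call in the phloridzin high-dose group was lost without model liver 1 (-1.01, limma adjusted p = 0.062), without phloridzin liver 2 (-1.23, 0.055) and in a fit of those 2 groups alone (-1.21, 0.074). Nearly all of the Per2 signal, 98.9%, came from 1 protein-coding transcript of 5833 bases at chr1:91415982-91459324 on the minus strand of GRCm38.

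Per1 encodes a repressor of the same kind and is the member most readily induced by acute stimuli. Its level was 3.57, 0.223 and 1.47 FPKM in the control livers, 4.89, 3.21 and 5.71 in the model livers, 1.38, 2.50 and 0.687 in the silibinin livers and 1.17, 3.46 and 3.26 in the phloridzin livers. Control liver 1 lay within the range of the model livers, so those groups overlapped, as did the model and phloridzin livers. All 3 silibinin livers were below all 3 model livers. The log2 fold change was 1.20 between the model and control groups (interval 0.17 to 2.22, limma adjusted p = 0.068), -1.19 with silibinin (-2.21 to -0.16, 0.12) and -0.67 with phloridzin (-1.70 to 0.36, 0.39), and none passed. Without control liver 1 the first difference was 1.66 and passed (limma adjusted p = 0.020, over omissions of single livers 0.020 to 0.23).

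The Per1 signal was assigned to different transcripts in different livers, within groups as well as between them. The transcript of 4671 bases had 3.31, 2.14 and 5.65 FPKM in the model livers, 0.00407, 0 and 0.750 in the control livers, 0.911, 0.788 and 0.00583 in the silibinin livers and 0, 0.209 and 0.0109 in the phloridzin livers. A second protein-coding transcript, of 4537 bases, which begins at a later position of the gene, had 1.14, 3.21 and 3.13 FPKM in the phloridzin livers and 3.44 in control liver 1. That second transcript was listed at 0 in the other 2 control livers and in all model and silibinin livers. With the 4671-base transcript alone, Per1 passed in all 3 comparisons, with log2 fold changes of 1.89 (limma adjusted p = 0.0040), -1.57 (0.019) and -2.07 (0.0057). Both transcripts share most of the gene, chr11:69095217-69109960 on the plus strand, and their split was estimated by the assembler, so the sum is the more direct measure. A transcript of 3507 bases held 19.6% of the Per1 signal over all livers. It had 1.53, 1.03 and 0 FPKM in the model livers and 0.473, 1.69 and 0.645 FPKM in the silibinin livers, and it was the largest part of the Per1 level of silibinin livers 2 and 3. The value of 0.223 FPKM in control liver 2 rests on a 496-base transcript alone, with 12 fragments.

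**Figure D2:**
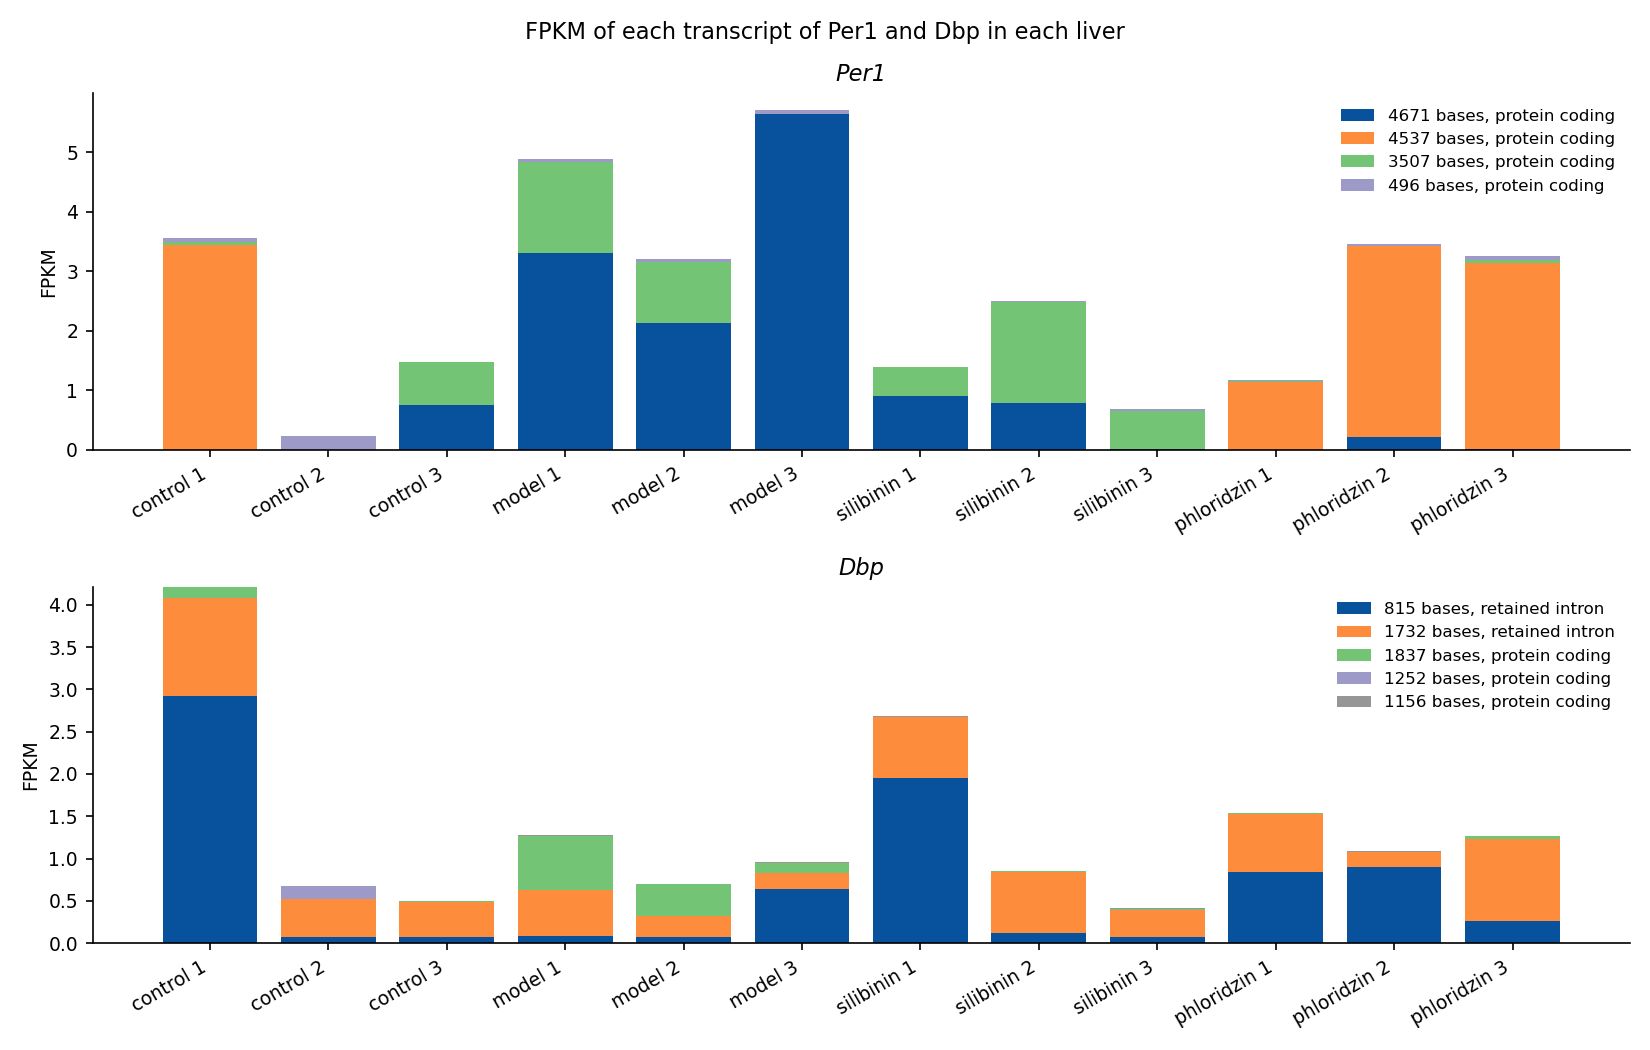
FPKM of each annotated transcript of Per1 and Dbp above 0 in at least 1 liver, stacked, for each of the 12 livers. The 4671-base Per1 transcript makes up most of the signal in the model livers and the 4537-base transcript most of it in the phloridzin livers and control liver 1, while 2 retained-intron transcripts make up most of Dbp in all livers but model livers 1 and 2.

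Per3, a further member of the family that is not needed for the central loop to run, had 4.11, 0.479 and 0.499 FPKM in the control livers and 2.87, 1.13 and 2.38 FPKM in the model livers. The silibinin livers had 3.31, 1.42 and 1.37 FPKM, and the phloridzin livers 2.44, 1.97 and 4.24 FPKM. The control group alone spanned nearly the whole range, with control liver 1 above every model liver and the other 2 below. No comparison passed, and the interval of the difference between the model and control groups, -0.61 to 1.47 on the log2 scale, holds changes of either sign.

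Nr1d1 encodes REV-ERBα, the repressor of Arntl transcription. Its level was 15.8, 4.89 and 10.2 FPKM in the control livers and 4.57, 2.83 and 4.69 FPKM in the model livers. In the silibinin livers it was 16.2, 9.39 and 6.42 FPKM, and in the phloridzin livers 14.3, 6.26 and 7.79 FPKM. The 3 model livers were below the 9 others, a mirror image of Per2, although control liver 2 was close to the highest model liver. The log2 fold change was -1.07 between the model and control groups (interval -2.01 to -0.12, limma adjusted p = 0.074), 1.15 with silibinin (0.21 to 2.09, 0.10) and 1.00 with phloridzin (0.06 to 1.95, 0.15), so none was called DE. With a block for replicate number all 3 passed (limma adjusted p = 0.018, 0.029 and 0.049), although the numbers do not pair the livers. After scaling by median ratios the first difference was -1.42 and passed (limma adjusted p = 0.028, in a range of 0.018 to 0.13 over settings), and without control liver 2 it was -1.47 (0.026). Annotated exons of Nr1d1 share 263 bases, 8.55% of their length, with Thra on the other strand, whose mean was 5.87 FPKM, and since the strand used in counting is not stated, fragments from these bases cannot be told apart.

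Nr1d2, which encodes REV-ERBβ, did not follow Nr1d1. Its level was 2.87, 1.13 and 1.11 FPKM in the control livers, 1.57, 1.67 and 2.56 in the model livers, 0.957, 0.778 and 1.40 in the silibinin livers and 1.59, 4.14 and 2.17 in the phloridzin livers. Every silibinin liver was below every model liver and every phloridzin liver, and the other groups overlapped. The difference between the phloridzin high-dose and silibinin groups, 0.78 on the log2 scale, was the only one among the 10 clock genes with an unadjusted p under 0.05 between the drugs (limma adjusted p = 1.0). Compared with the model group, the log2 fold change was -0.52 with silibinin (interval -1.17 to 0.14, limma adjusted p = 0.28) and 0.26 with phloridzin (-0.39 to 0.92, 0.62).

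In counts of groups that do not overlap, 2 of the 10 genes (Nr1d1 and Per2) separated the model from the control livers, where 52% of all genes tested did. There were 4 (Nr1d1, Nr1d2, Per1 and Per2) between the silibinin and model livers, beside 36.7% of all genes, and 2 (Nr1d1 and Per2) between the phloridzin and model livers, beside 30.6%. Between the drug groups there was 1, Nr1d2, beside 7.99% of all genes. None of the 10 separated the silibinin or the phloridzin livers from the control livers, beside 30.4% and 29.8% of all genes. The number of clock genes with an adjusted p under 0.05 by limma was 0 between the drugs, 0 in the silibinin group and 0 in the phloridzin high-dose group relative to the control group, and at an unadjusted p under 0.05 it was 1, 1 and 0, beside 3.75%, 21.5% and 24.6% of all genes. The 1 gene in the silibinin group was Clock, with a log2 fold change of 0.49 (interval 0.00 to 0.97, limma adjusted p = 0.23).

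Arntl encodes BMAL1, the activator without which the clock stops. Its level was 1.73, 4.81 and 1.13 FPKM in the control livers, 8.06, 5.21 and 1.87 in the model livers, 3.22, 6.95 and 2.58 in the silibinin livers and 4.59, 1.07 and 4.59 in the phloridzin livers. The groups overlapped throughout, and livers of 1 group differed by more than the group means did. The difference between the model and control groups was 0.75 on the log2 scale (interval -0.47 to 1.97, limma adjusted p = 0.31). It was 0.45 after scaling by median ratios, 0.29 to 0.98 over the settings tried and 0.38 to 1.21 on omission of single livers.

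Npas2, the gene of a partner that can take the place of CLOCK, had 0.0741, 1.26 and 1.63 FPKM in the control livers and 1.92, 1.88 and 1.25 in the model livers. The silibinin livers had 1.53, 2.93 and 1.11 FPKM and the phloridzin livers 1.48, 0.684 and 0.508. These groups overlapped, and no comparison passed. Clock, the gene of the more abundant partner, had 10.2, 12.2 and 16.4 FPKM in the control livers, 16.4, 19.2 and 21.8 in the model livers, 18.4, 20.3 and 16.3 in the silibinin livers and 21.1, 13.7 and 12.1 in the phloridzin livers. The highest control liver reached the lowest model liver. The log2 fold change of Clock between these groups was 0.54 (interval 0.06 to 1.03, limma adjusted p = 0.077), and after scaling by median ratios it was 0.14 (0.64). Without control liver 3 it was 0.71 and passed (limma adjusted p = 0.041), and it also passed without phloridzin liver 1, which enters only the common spread (0.54, 0.035), in a range of 0.035 to 0.23 over omissions of single livers.

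Dbp and Tef encode 2 related leucine zipper factors that carry the rhythm to liver output genes. The level of Dbp was 4.21, 0.681 and 0.494 FPKM in the control livers, 1.275, 0.704 and 0.961 in the model livers, 2.68, 0.851 and 0.411 in the silibinin livers and 1.54, 1.09 and 1.27 in the phloridzin livers. Control liver 1 and silibinin liver 1 stood above the rest, and the groups overlapped. Tef had 27.1, 12.2 and 10.4 FPKM in the control livers, 15.8, 8.36 and 12.1 in the model livers, 19.0, 19.1 and 8.65 in the silibinin livers and 11.1, 16.1 and 26.8 in the phloridzin livers, again with overlap between all groups. Log2 fold changes between the model and control groups were -0.26 for Dbp (interval -1.26 to 0.74) and -0.34 for Tef (-1.29 to 0.61), neither passed, and both changed sign without control liver 1, to 0.31 and 0.05.

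Pooled over the 12 livers, most of the Dbp signal did not come from coding transcripts. A retained-intron transcript of 815 bases held 49.7% and another of 1732 bases held 40.8%, whereas the protein-coding transcripts together held 9.57%. The 815-base transcript stood at 2.92 FPKM in control liver 1 and at 1.96 FPKM in silibinin liver 1. In control livers 2 and 3, model livers 1 and 2, silibinin livers 2 and 3 and phloridzin liver 3 the 1732-base transcript was larger. The coding transcripts had 0.642, 0.381 and 0.134 FPKM in the model livers and 0.135, 0.155 and 0.00497 FPKM in the control livers. In the silibinin and phloridzin livers they had at most 0.0387 FPKM. Their share of the Dbp signal thus differed between livers, with 50.3, 54.1 and 13.9% in the model livers, 3.20, 22.7 and 1.01% in the control livers and at most 3.12% in the drug-treated livers. Exons of Dbp share 539 bases, 18.0% of their length, with Sphk2 on the other strand, which had a mean of 17.0 FPKM, so that part of the Dbp value may belong to Sphk2 and its share was not tested. For the other members the coding share of the signal was between 54.9% for Per3 and 100% for Per1.

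**Figure D3:**
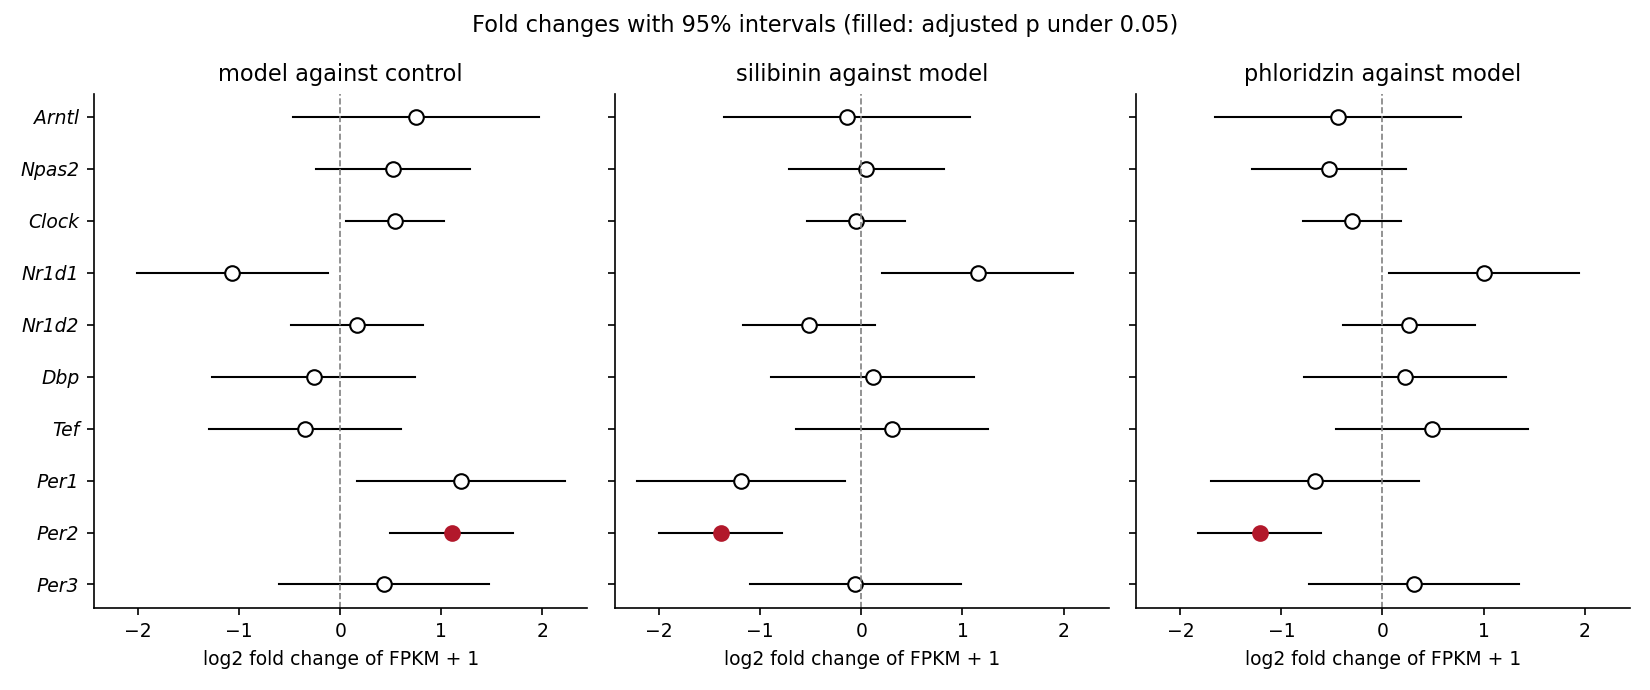
Log2 fold change of FPKM + 1 for each of the 10 clock genes in the 3 comparisons that involve the model group, with 95% intervals from limma over 12 livers and filled points at an adjusted p under 0.05. Only Per2 is filled, higher in the model group and lower in each drug group, and most other intervals cross 0.

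The clock genes varied strongly between livers of the same group. The residual SD of Arntl on the log2 scale, 0.76, was at percentile 94.7 of all genes tested, beside a median of 0.24. Per3 was at percentile 91.9, Per1 at 91.5, Dbp at 91, Tef at 89.8, Nr1d1 at 89.6, Npas2 at 83.3 and Nr1d2 at 77.4. The percentiles of Per2, 74.1, and Clock, 60.3, were the lowest of the 10.

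Whether livers differed in clock state was described by the mean log2(FPKM + 1) of the activators Arntl, Npas2 and Clock minus that of the other 7 genes. This contrast was -1.08, 1.05 and 0.58 in the control livers and 0.63, 1.06 and 0.15 in the model livers. It was 0.33, 1.21 and 0.84 in the silibinin livers and 0.80, -0.27 and -0.13 in the phloridzin livers. The control group spanned the widest range, with control liver 1 the lowest of the 12, and the 4 groups overlapped. In control liver 1, Dbp and Tef had their highest levels and Npas2 and Clock their lowest levels of all 12 livers, and Nr1d1, Nr1d2 and Per3 each had their second highest. The Npas2 value of that liver, 0.0741 FPKM, was only 5.39% of the median of the gene, and coding transcripts held 3.20% of its Dbp signal. With the highest transcript alone the contrast was -0.92, 0.78 and 0.08 in the control livers, -0.07, 0.58 and -0.48 in the model livers, -0.18, 1.04 and 0.09 in the silibinin livers and 0.20, -0.68 and -0.09 in the phloridzin livers, so that the sign turned in model livers 1 and 3 and silibinin liver 1. With a pseudocount of 0.1, the values that moved by over 1.5 times were those of control liver 1 (-1.91), control liver 2 (1.596), model liver 3 (0.08), phloridzin liver 2 (-0.51) and phloridzin liver 3 (-0.31). Control liver 1 was the lowest liver in each setting. The model livers did not stand apart on this contrast, while they stood apart for Per2 and Nr1d1. Both genes are among the 7, and they moved in opposite directions between the model and control groups (log2 fold changes 1.10 and -1.07). Their changes offset each other in the mean, so the contrast cannot show whether the clock state of the model livers differed. A difference in the hour of sampling and a difference in treatment cannot be told apart in these groups, since the hour is not given.

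**Figure D4:**
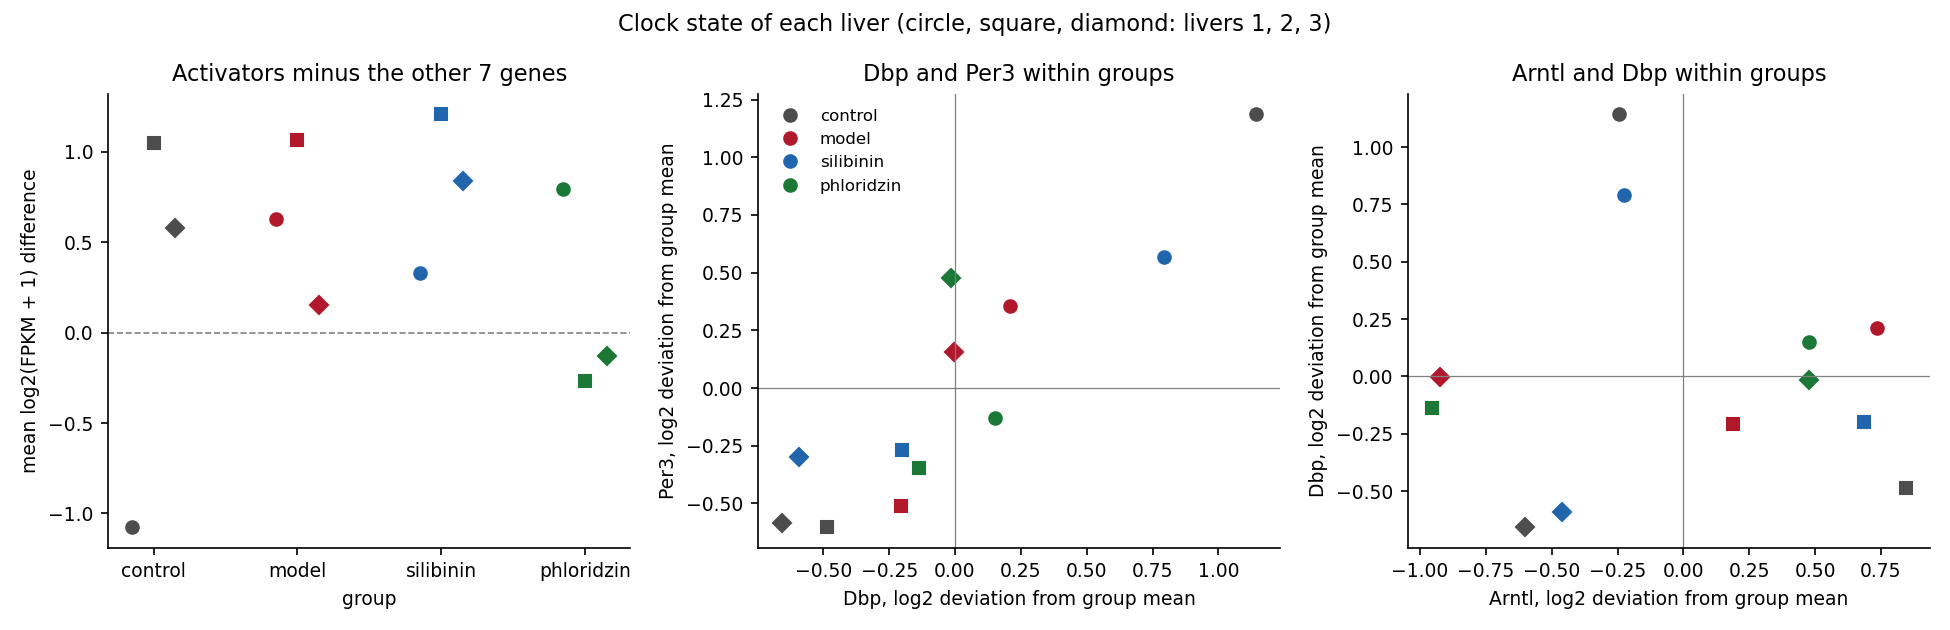
Clock state of the 12 livers, with the difference in mean log2(FPKM + 1) between the 3 activators and the other 7 genes in each liver by group, and the within-group log2 deviations of Per3 against Dbp and of Dbp against Arntl. Control liver 1 lies apart at -1.08 in the first panel and at the upper right of the second, and the third shows no trend.

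Within groups, 3 gene pairs were compared across the 12 livers after each group mean was removed, with exact permutation of livers within groups (two-sided) and Benjamini-Hochberg adjustment over the 3 pairs. Dbp and Per3, which peak within hours of each other, deviated together, with r = 0.90 (exact p = 0.0139, adjusted p = 0.0417) and rho = 0.88 (exact p = 0.0139, adjusted p = 0.0417), and the same sign in 9 of 12 livers. Without control liver 1 and silibinin liver 1, the livers farthest from the median of Dbp, r was 0.49. On omission of single livers r was 0.73 to 0.95, and the call was lost in 10 of 12 omissions, all but those of phloridzin livers 1 and 3 (exact permutation, adjusted p = 0.014 to 0.12). With the most abundant transcripts alone r was 0.77 and did not pass (exact permutation, adjusted p = 0.17). With protein-coding transcripts only, r was 0.08 (exact permutation, adjusted p = 0.87, the highest of a range from 0.042 over settings).

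Arntl and Dbp, which peak at opposite times, gave r = -0.01 (exact p = 0.987, adjusted p = 0.987) and rho = 0.08 (exact p = 0.863, adjusted p = 0.863), and r = -0.09 without phloridzin liver 2 and model liver 3. With protein-coding transcripts only, r was 0.68 (exact permutation, adjusted p = 0.095). They deviated with the same sign in 6 livers and with opposite signs in 6. Arntl and Npas2, which peak together, gave r = 0.43 (exact p = 0.228, adjusted p = 0.341) and rho = 0.42 (exact p = 0.243, adjusted p = 0.365), with the same sign in 10 of 12 livers and r = 0.38 without the same 2 livers. Over the settings tried this r was 0.01 to 0.35, below the value given, and on omission of single livers 0.30 to 0.70. Pairs between the activators Arntl, Npas2 and Clock aside, 21 pairs joined an activator with another clock gene, and 18 of these had an r below 0 within groups. The 21 values ran from -0.81 for Npas2 and Nr1d2 to 0.27 for Clock and Nr1d1. These pairs were not tested apart from Arntl and Dbp. The 21 values share the same 12 livers and the same activators, so they are not independent. How often other gene pairs have an r below 0 was not computed. Some of the values below 0 were close to it, such as -0.03 for Arntl and Per3 and -0.10 for Arntl and Nr1d1. A relation that does not pass with 12 livers may still exist.

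Across all 12 livers, group differences included, the genes most like Arntl were Ptms with r = 0.874, Foxj3 with 0.870, Srrm1 with 0.864, Kctd18 with 0.863 and Mkl2 with 0.859, among 11610 genes with a mean of at least 1 FPKM. Those most like Dbp were Dcun1d1 with r = 0.843, Gm7846 with 0.834, Gm10651 with 0.818 and Dffa with 0.813. No clock gene was among them.

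Promoter sequences are shown because clock factors act through short sites near gene starts, and because the clock genes differ in which of these sites they hold. RefSeq promoter windows (GRCm38.p6, 300 bases each, of which the last 50 follow a gene start) matched 9 of the 10 members, and Per2 had none. Each window was searched on both strands for the E-box CACGTG, its variant CACGTT, the ROR elements TAGGTCA and TGGGTCA, the D-boxes TTACGTAA and TTATGTAA and the cAMP response element TGACGTCA. Capitals mark a match, and a match is a description of the letters only.

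The E-box occurred in 7.15% of all 32851 windows, and among the members in Tef and Per1. For Per1 it lay at position -166 from the start, in the window chr11:69098699-69098998 on the plus strand, which holds the start of the 4671-base transcript, and for Tef at position -138 in the window chr15:81811164-81811463 on the plus strand. A second Tef window, chr15:81802423-81802722 on the plus strand, held an E-box at position -127.
Per1 promoter: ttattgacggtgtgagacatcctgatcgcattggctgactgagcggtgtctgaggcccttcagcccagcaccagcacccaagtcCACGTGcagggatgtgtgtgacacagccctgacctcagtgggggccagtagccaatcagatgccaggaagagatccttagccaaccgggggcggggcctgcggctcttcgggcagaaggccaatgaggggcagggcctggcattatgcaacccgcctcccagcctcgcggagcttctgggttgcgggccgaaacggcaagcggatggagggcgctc
Tef promoter: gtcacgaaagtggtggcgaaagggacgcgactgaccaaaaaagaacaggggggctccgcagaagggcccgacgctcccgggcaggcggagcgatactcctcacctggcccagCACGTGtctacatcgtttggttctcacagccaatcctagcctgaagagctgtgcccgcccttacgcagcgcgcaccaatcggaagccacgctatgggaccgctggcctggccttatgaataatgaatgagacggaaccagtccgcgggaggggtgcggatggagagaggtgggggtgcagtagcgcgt

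The variant CACGTT, which reads AACGTG on the other strand, occurred in 4.68% of windows and among the members only in Nr1d1, at position -28 in the window chr11:98775328-98775627 on the minus strand. The ROR element TAGGTCA, to which REV-ERB and ROR receptors bind, occurred in 2.61% of windows and among the members only in Arntl, 30 bases after the gene start, in the window chr7:113207261-113207560 on the plus strand. TGGGTCA occurred in 3.98% of windows and in no member.
Nr1d1 promoter: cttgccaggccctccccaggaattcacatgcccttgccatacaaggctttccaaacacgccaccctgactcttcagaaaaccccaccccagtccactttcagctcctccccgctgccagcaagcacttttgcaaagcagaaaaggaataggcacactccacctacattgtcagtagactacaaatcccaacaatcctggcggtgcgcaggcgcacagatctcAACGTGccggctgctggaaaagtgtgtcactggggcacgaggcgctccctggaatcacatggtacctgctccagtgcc
Arntl promoter: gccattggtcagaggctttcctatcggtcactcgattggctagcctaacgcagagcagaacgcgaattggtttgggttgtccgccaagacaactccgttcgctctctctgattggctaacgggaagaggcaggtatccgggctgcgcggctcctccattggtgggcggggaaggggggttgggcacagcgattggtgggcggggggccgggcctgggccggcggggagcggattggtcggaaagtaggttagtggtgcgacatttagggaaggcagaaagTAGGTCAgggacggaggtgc

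The D-box TTATGTAA occurred in 0.938% of windows, and Per3 was the only member with it, with 2 matches, at positions -205 and -158 in the window chr4:151044616-151044915 on the minus strand. TTACGTAA occurred in 0.119% of windows and TGACGTCA in 1.79%, and no member window held either.
Per3 promoter: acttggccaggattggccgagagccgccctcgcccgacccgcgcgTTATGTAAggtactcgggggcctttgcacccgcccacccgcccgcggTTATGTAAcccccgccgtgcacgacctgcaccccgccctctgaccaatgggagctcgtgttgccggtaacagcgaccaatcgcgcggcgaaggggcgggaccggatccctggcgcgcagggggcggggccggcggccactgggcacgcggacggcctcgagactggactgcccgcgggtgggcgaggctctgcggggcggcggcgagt

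A list of 9 other core clock genes was examined beside the 10, of which 8 were tested, since Bhlhe41 was under the filter with 0.156 to 0.747 FPKM. In the model group relative to the control group 2 were higher and 0 lower, with a median log2 fold change of 0.18 beside 0.34 for all genes. Compared with the model group, 2 were lower with silibinin (median -0.34, all genes -0.15) and 1 with phloridzin (median -0.14, all genes -0.11). After scaling by median ratios, Rora joined as lower in the model group and Bhlhe40 alone passed in each drug group. On that scale the median of the list turned to -0.14 in the model group relative to the control group. Relative to the model group it was -0.14 (silibinin) and 0.005 (phloridzin).

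Cry1 encodes a cryptochrome, the partner of the PER proteins in repression. Its level was 2.25, 5.90 and 3.53 FPKM in the control livers, 14.3, 16.0 and 15.5 in the model livers, 4.10, 7.64 and 9.32 in the silibinin livers and 5.72, 10.2 and 6.43 in the phloridzin livers. All model livers were above the 9 others, as for Per2. Cry1 was 1.80 higher on the log2 scale in the model group than in the control group (interval 1.10 to 2.50, limma adjusted p = 0.0020) and -1.08 with silibinin relative to the model group (interval -1.78 to -0.38, limma adjusted p = 0.047). The difference with phloridzin, -0.98, did not pass (limma adjusted p = 0.070). The silibinin call was lost after scaling (-0.88, limma adjusted p = 0.13, in a range of 0.018 to 0.13 over settings), and without silibinin liver 1 (-0.78, 0.15), silibinin liver 2 (-1.16, 0.078), control liver 3 (-1.08, 0.063), phloridzin liver 3 (-1.08, 0.059) or any model liver (-1.12, -1.05 and -1.07, with 0.090, 0.12 and 0.10).

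Bhlhe40 encodes DEC1, which competes with BMAL1 at E-boxes and also responds to low oxygen and other stimuli. Its level was 3.33, 2.55 and 2.47 FPKM in the control livers, 9.11, 12.5 and 10.6 in the model livers, 6.07, 4.70 and 4.197 in the silibinin livers and 5.42, 3.43 and 5.34 in the phloridzin livers. The 3 model livers were the highest, the drug groups lay between, and every drug-treated liver was above every control liver. The log2 fold change was 1.63 in the model group (interval 1.21 to 2.05, limma adjusted p = 0.00025), -0.97 with silibinin (-1.39 to -0.55, 0.0081) and -1.04 with phloridzin (-1.46 to -0.62, 0.0060), and all 3 also passed after scaling. Both drug calls were lost with the most abundant transcript alone (-0.92 with limma adjusted p = 0.072, and -0.97 with 0.065, each the highest over the settings tried).

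The genes of the receptors and of the D-box factors in this list did not pass. Rora, an activator of Arntl, had 10.1, 6.95 and 7.18 FPKM in the control livers and 8.49, 0.807 and 1.71 in the model livers, beside 6.00 to 12.4 in the drug groups. Model liver 1 was in the range of the controls, and the difference was -1.32 (limma adjusted p = 0.064). Nfil3, a repressor at D-boxes, had 4.204, 11.6 and 16.7 FPKM in the control livers and 14.8, 31.5 and 25.5 in the model livers, with a log2 fold change of 1.19 (limma adjusted p = 0.070). Between the model and control groups, the log2 fold changes were -0.21 for Cry2, -0.31 for Hlf and 0.07 for Ciart, each with groups that overlap.

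**Figure D5:**
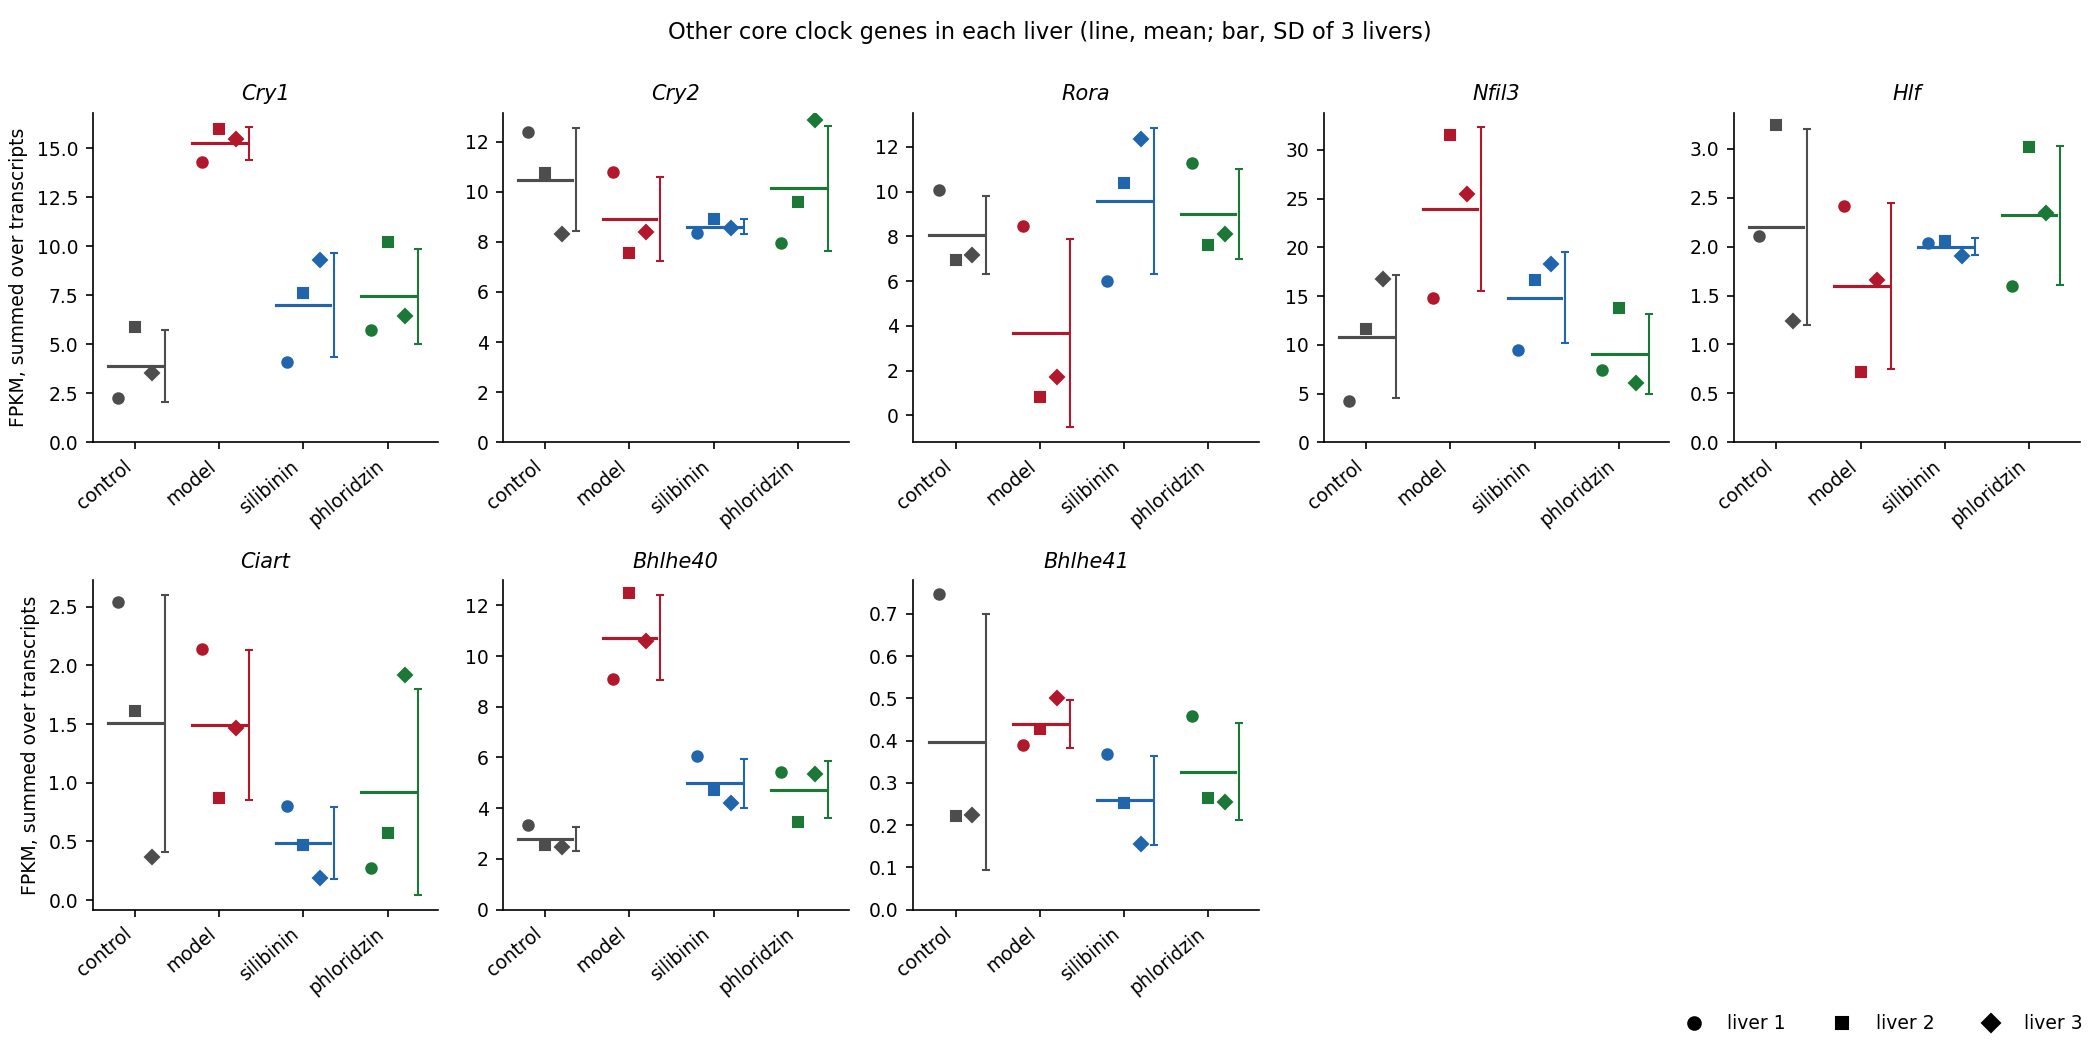
FPKM of 8 other core clock genes in each of the 12 livers, with 1 panel for each gene, the 4 groups on the horizontal axis, the line at the group mean and the bar at 1 SD of 3 livers. All model livers lie above the other 9 for Cry1 and Bhlhe40, and Rora is low in 2 of the 3 model livers.

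Of 8 kinases, ubiquitin ligases and deubiquitinating enzymes that act on PER and CRY proteins, 4 were higher in the model group than in the control group and 0 lower (median 0.70, all genes 0.34). The median of these 8 was 0.35 after scaling. Csnk1e, a casein kinase that phosphorylates PER proteins, was higher by 1.00 (limma adjusted p = 0.0011), Csnk2a1, the catalytic subunit of casein kinase 2, by 1.12 (0.0090), and Csnk1d, the kinase next of kin to Csnk1e, by 0.65 (0.035). After scaling only Csnk1e and Csnk2a1 passed, and with the most abundant transcript alone the sign of Csnk1d turned (-0.32, limma adjusted p = 0.87), which also did not pass with protein-coding transcripts only (0.53, 0.28). Without control liver 1, model liver 1, model liver 2 or model liver 3 Csnk1d did not pass (limma adjusted p up to 0.094 over omissions of single livers).

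Compared with the model group, 0 of these 8 genes were DE by limma with silibinin (median -0.28, and -0.10 after scaling), with 2 (Csnk1e and Csnk2a1) at an unadjusted p under 0.05. With phloridzin 1 was lower (median -0.17, and -0.01 after scaling), namely Gsk3b, a kinase of several clock proteins, with a log2 fold change of -0.998 (limma adjusted p = 0.040). That call was lost with the most abundant transcript alone (-0.87, limma adjusted p = 0.19), after scaling (-0.83, 0.11), with only the 2 groups (0.094) and without model liver 1 or 2, control liver 2, silibinin liver 3, phloridzin liver 1 or 2 (limma adjusted p up to 0.13).

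Output genes that DBP, TEF and HLF are known to drive did not move in 1 direction. Of 8 tested, 2 were higher in the model group than in the control group and 1 lower (median -0.58, all genes 0.34). The median of these 8 was -0.995 after scaling. Cyp2b10, a drug-metabolising cytochrome, rose by 2.87 on the log2 scale (limma adjusted p = 0.0032), Alas1, the first enzyme of heme synthesis, by 1.06 (0.033), and Cyp2c50, another cytochrome, changed by -1.33 (0.0073). After scaling Alas1 did not pass (0.66, limma adjusted p = 0.22) and Nr1i3, a receptor for foreign compounds, was lower as well. Without control liver 2 or 3 or any 1 of the model livers, Alas1 did not pass either (limma adjusted p up to 0.096). By limma 0 were DE with silibinin relative to the model group (median 0.10, and 0.30 after scaling), with 3 (Cyp2b10, Alas1 and Cyp7a1) at an unadjusted p under 0.05. With phloridzin 1 was higher (median 0.36, and 0.53 after scaling), Cyp7a1, the rate-limiting enzyme of bile acid synthesis.

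Cyp7a1 had 24.1, 3.64 and 23.4 FPKM in the model livers and 43.3, 134.9 and 105.2 FPKM in the phloridzin livers, beside 36.7, 26.9 and 22.9 in the control livers and 38.0, 35.7 and 106.7 in the silibinin livers. All phloridzin livers were above all model livers. The log2 fold change was 2.60 (interval 1.11 to 4.10, limma adjusted p = 0.031). It did not pass without model liver 2 (1.80, limma adjusted p = 0.076), phloridzin liver 2 (2.28, 0.11) or phloridzin liver 3 (2.45, 0.090), in a range of 0.019 to 0.11 over omissions of single livers, nor with no filter (0.055) or only the 2 groups (0.10).

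Among 10 other liver genes known to be rhythmic, 4 were higher and 1 lower in the model group than in the control group (median 0.69, all genes 0.34). After scaling 1 was higher (Pfkfb3) and 1 lower (Elovl3), with a median of 0.37. Elovl3, a fatty acid elongase, had 25.5, 102.3 and 99.3 FPKM in the control livers and 5.61, 5.83 and 14.1 FPKM in the model livers, a change of -2.89 (limma adjusted p = 0.014) that did not pass without control liver 2 (-2.55, 0.052) or control liver 3 (0.052). Pfkfb3, an activator of glycolysis, had 2.93, 1.71 and 1.82 FPKM in the control livers and 6.90, 6.97 and 7.33 FPKM in the model livers. In the silibinin livers it had 3.56, 3.29 and 2.11 FPKM, and in the phloridzin livers 3.69, 2.36 and 2.47 FPKM. The model livers were again above the 9 others, and the drug groups overlapped with the control group.

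Pfkfb3 passed in all 3 comparisons, with log2 fold changes of 1.37 (limma adjusted p = 0.00074), -1.03 (0.0078) and -1.09 (0.0064), and passed in none with protein-coding transcripts only (0.72, -0.73 and -0.61, with 0.15, 0.21 and 0.31). With its most abundant transcript alone, both drug calls of Pfkfb3 were lost as well (-0.67 and -1.001, limma adjusted p = 0.29 and 0.13). Wee1, a cell cycle kinase under E-box control, was higher by 0.93 in the model group (limma adjusted p = 0.045), a call lost after scaling (0.70, 0.10) and on omission of any control, model or silibinin liver (limma adjusted p up to 0.14). The silibinin group had 0 higher and 1 lower gene of this list relative to the model group (median -0.05). After scaling Pnpla2 passed there as higher, and the median turned to 0.08. With phloridzin 1 was higher and 1 lower (median 0.03, and 0.13 after scaling), the former being Pnpla2, a triglyceride lipase, at 0.75 (limma adjusted p = 0.044). Pnpla2 did not pass with the most abundant transcript alone (0.34, limma adjusted p = 0.22), with protein-coding transcripts only (0.35, 0.16) or in a fit of the 2 groups alone (0.14), nor without phloridzin liver 3 (0.48, 0.10), any control liver, any model liver or silibinin liver 1 or 2 (limma adjusted p up to 0.13).

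Genes that answer systemic cues such as glucocorticoids, temperature and feeding were examined because such cues also reset the liver clock. Of 12 tested, 5 were higher in the model group than in the control group and 0 lower (median 1.09, all genes 0.34). After scaling 3 of them, Igfbp1, Hspa1b and Sgk1, passed, and the median was 0.67. Igfbp1, an insulin-repressed binding protein, had 31.6, 21.9 and 29.0 FPKM in the control livers, 320.8, 467.5 and 424.9 in the model livers, 35.7, 27.1 and 107.0 in the silibinin livers and 40.4, 127.6 and 126.9 in the phloridzin livers. Its log2 fold change was 3.83 (limma adjusted p = 0.00054), followed by Hspa1b, a heat-inducible chaperone, at 3.49 (0.00016) and Sgk1, a kinase induced by glucocorticoids and other stimuli, at 1.70 (0.00018). Compared with the model group, 4 of the 12 were lower with silibinin (median -0.79) and 4 with phloridzin (median -0.31), of which 4 and 2 passed after scaling (medians -0.58 and -0.12). The largest of these changes were in Igfbp1 (-3.06 and -2.19) and Hspa1b (-2.92 and -2.85), followed by Hsp90aa1, a chaperone of steroid receptors, with silibinin (-1.45) and Srebf1, a regulator of lipid synthesis, with phloridzin (-1.18). Not every cue gene moved with them, since Fkbp5, a glucocorticoid target, ranged from 0.0821 to 22.8 FPKM over the 12 livers and overlapped between all groups (model compared with control, 1.44, limma adjusted p = 0.40). Mean FPKM in the control and model groups was 9.0 and 6.1 for Tsc22d3 and 985.5 and 405.4 for Pck1. It was 0.65 and 0.041 for Ppargc1a and 3.96 and 3.14 for Cirbp. These genes were thus lower on average in the model group, with overlap between the livers, and none was DE. The other genes of the list had higher means in the model group. Some of the calls above hung on single livers or settings. Hsp90aa1 did not pass with silibinin without model liver 2 (limma adjusted p = 0.054), Igfbp1 with phloridzin did not pass without model liver 2 (0.073) or model liver 3 (0.057), with only the 2 groups (0.054) or after scaling, and Srebf1 with phloridzin did not pass with the most abundant transcript alone (-0.41, limma adjusted p = 0.76), after scaling (0.065) or, among others, without any 1 of the model or phloridzin livers (limma adjusted p up to 0.10).

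Immediate early genes, which are induced within a short time of a stimulus as Per1 and Per2 can be, had the largest median change of all lists. Of 10 listed 9 were tested, and 8 were higher in the model group than in the control group (median 2.48, all genes 0.34), 7 of these after scaling. Compared with the model group 7 were lower with silibinin (median -1.90, all genes -0.15; 6 after scaling) and 7 with phloridzin (median -1.80, all genes -0.11; 7 after scaling). Atf3, a stress-induced factor, had 0.326, 0.242 and 0.350 FPKM in the control livers, 42.6, 42.8 and 50.2 in the model livers, 2.43, 2.24 and 0.934 in the silibinin livers and 3.24, 1.502 and 1.51 in the phloridzin livers. The model livers were far above all others, and every drug-treated liver was above every control liver. Its log2 fold changes were 5.14 (limma adjusted p = 2.1e-06), -4.05 (8.2e-06) and -3.95 (1.4e-05). Klf6, a zinc finger factor induced by injury, changed by 2.77 in the model group. Jun and Fos, which form the AP-1 factor, changed by 2.89 and 2.47 in the model group, by -2.00 and -2.19 with silibinin and by -1.81 and -1.91 with phloridzin. Whether the higher Per2 level in the model livers is part of such a response was not tested.

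Some marker RNAs of other liver cell types were higher in the model livers than in the control livers. Albumin, the main hepatocyte product, was between 10970 and 29360 FPKM in every liver. The 8 hepatocyte markers, of which albumin is the most abundant, summed to 18930, 23860 and 18160 FPKM in the control livers, 17130, 25060 and 28650 in the model livers, 29350, 34240 and 18900 in the silibinin livers and 22310, 30210 and 22720 in the phloridzin livers, with overlap between all groups. Of these 8, 1 was lower in the model group, the cytochrome Cyp2e1, which activates CCl4 (-2.35, limma adjusted p = 0.0014), though not with its most abundant transcript alone (-1.07, 0.60). After scaling Serpina1c, a protease inhibitor, was lower as well, and 0 were DE by limma in either drug group relative to the model group, with 1 (Cyp2e1, silibinin) at an unadjusted p under 0.05.

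Markers of stellate cells and myofibroblasts, the collagen-forming cells, were higher in 6 of 8 in the model group and lower in 0 (4 higher after scaling), led by Col1a1 (4.35), Col3a1 (3.75) and Col1a2 (1.52, limma adjusted p = 0.021, not with protein-coding transcripts only, 0.53 and 0.55, nor without control liver 2, control liver 3 or model liver 1, up to 0.061). Their sum, with Dcn the most abundant, was 72.7, 67.8 and 77.5 FPKM in the control livers, 220.3, 215.7 and 249.1 in the model livers, 224.0, 256.0 and 118.0 in the silibinin livers and 306.4, 175.8 and 153.8 in the phloridzin livers. Every liver given CCl4 was above every control liver, and the drug groups overlapped with the model group. By limma 0 of the 8 were DE with silibinin relative to the model group, with 1 (Lrat) at an unadjusted p under 0.05, and 1 (Lrat) was lower with phloridzin (-0.83, limma adjusted p = 0.015), though not without model liver 3 (0.051) or phloridzin liver 2 (0.063) or with only the 2 groups (0.051).

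Macrophage markers were higher in 3 of 6 in the model group (1 after scaling), namely Lyz2 (2.16), the most abundant, Adgre1 (0.95) and Csf1r (0.81), of which the last 2 did not pass without control liver 1, control liver 3, model liver 2 or model liver 3 (limma adjusted p up to 0.091 and 0.085), and 0 were DE in either drug group relative to the model group by limma, nor was any at an unadjusted p under 0.05. Their sum was 68.5, 124.9 and 119.0 FPKM in the control livers, 235.3, 399.3 and 343.5 in the model livers, 302.3, 393.0 and 295.0 in the silibinin livers and 445.6, 477.9 and 224.0 in the phloridzin livers. Again the livers given CCl4 were above the control livers and overlapped with each other. Endothelial markers, led by Kdr, had 0 of 5 DE genes by limma in the model group (1, Pecam1, at an unadjusted p under 0.05) and 0 in the drug groups (0 at an unadjusted p under 0.05), and summed to 28.0, 28.4 and 37.6 FPKM in the control livers, 40.7, 49.9 and 40.2 in the model livers, 27.9, 48.4 and 19.1 in the silibinin livers and 41.8, 56.5 and 40.3 in the phloridzin livers.

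Cholangiocyte markers, 3 of 5 tested, were higher in 2 in the model group (Spp1 at 1.94 and Krt19 at 0.73, the former alone after scaling) and 0 were DE by limma in the drug groups relative to the model group, with 1 (Krt19, phloridzin) at an unadjusted p under 0.05. Krt19 (limma adjusted p = 0.019) did not pass without control liver 1, model liver 2 or model liver 3 (up to 0.063). With Spp1 the most abundant, they summed to 11.3, 13.02 and 16.7 FPKM in the control livers, 46.2, 55.6 and 50.2 in the model livers, 47.8, 48.7 and 24.1 in the silibinin livers and 52.7, 26.8 and 25.7 in the phloridzin livers. Lymphocyte markers, 4 of 6 tested and led by Nkg7, were low throughout, with sums of 1.297, 2.76 and 2.14 FPKM in the control livers, 4.37, 6.45 and 5.07 in the model livers, 3.42, 5.39 and 4.205 in the silibinin livers and 8.55, 4.63 and 4.21 in the phloridzin livers. In the model group 1 of them was higher by limma, and 0 after scaling, and 0 were DE in the drug groups, nor was any there at an unadjusted p under 0.05. No marker gene was at 0 in any of the 12 livers. Fewer cells of a type and less RNA per cell cannot be told apart in bulk liver RNA, and the part of cell composition in the levels of the clock genes was not tested.

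Some single values were far below the rest of their gene. Of 11343 genes with a median of at least 1 FPKM, 425 (3.75%) had at least 1 liver under 0.1 of their median. The number of such genes was 121, 130 and 104 in the control livers, 59, 54 and 30 in the model livers, 47, 29 and 46 in the silibinin livers and 43, 52 and 47 in the phloridzin livers. Among the clock genes these were Npas2 in control liver 1, at 5.39% of its median, and Per1 in control liver 2, at 7.83%. The same occurred in abundant genes, such as the hepatocyte marker Ttr, with 39.8 FPKM in control liver 1 and 10.3 in phloridzin liver 1 beside 705.6 to 2530 in the other 10. Low single values of Npas2 and Per1 in the control group therefore enter their comparisons, and whether they reflect the livers or the estimation of transcripts was not tested.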

How the data were processed

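The authors deposited FPKM values for 169430 transcripts, of which 82136 carry a symbol, and their notes name FastQC 0.11.5, HISAT2 2.1.0, StringTie 1.3.3b, DESeq 1.28.0 and the build mm10. Their header names no unit. Low values of transcripts with 1500 bases or more (up to 20 fragments) were within 0.1 of a whole multiple of 1 step per liver in 98.8 to 99.2% of cases, from which FPKM and the library sizes were read. FPKM was summed over the transcripts of each symbol. Genes were tested with limma 3.58.1 (R 4.3.3 and data.table, version 1.17.8) on log2(FPKM + 1) in 1 fit of all 12 livers with 8 residual degrees of freedom, at adjusted p under 0.05 (Benjamini-Hochberg). Sums, correlations and promoter searches used scipy 1.17.1, pandas 2.3.3 and numpy 2.4.6 in Python 3.11.15, and plots matplotlib 3.10.9. The scripts were tested on simulated data. The 10 genes and all lists were chosen with earlier results of these data known. Named in the text were the 10 genes, each other core clock gene, and of every other list the genes that passed, or the 3 with the largest change where more than 3 did. Genes that passed only after scaling or only unadjusted beside a count of 0, Fkbp5, Tsc22d3, Pck1, Ppargc1a, Cirbp, Fos in the first comparison and Ttr were named outside this rule after their values were seen, and the 5 genes most like Arntl or Dbp by r. Some items that these rules name are not reported here. Alternatives were a pseudocount of 0.1, no filter, the most abundant transcript alone, 2 groups only, a replicate block, scaling by median ratios, a log2 fold cutoff of 1 and omission of each liver. Protein-coding transcripts only and limma-voom on recovered fragments were added after the data were seen.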

Additional observations from a re-analysis of the deposited data

How the results depend on the processing

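The number of clock genes passing in the model group relative to the control group was 2 with the highest transcript alone (Per1 and Per2) and 1 to 2 on omission of single livers. It was 1 after scaling by median ratios, with Nr1d1 in place of Per2. With silibinin it was 2 with the highest transcript alone, and with phloridzin it was 2 with that setting, 0 with only the 2 groups compared and 0 to 1 on omission of single livers. In the other comparisons it was 0 throughout. Under the replicate block it was 2 in each of the 3 comparisons with the model group, since Nr1d1 joined Per2, and no other clock gene changed its call. Same-numbered livers had deviations that correlated from -0.0909 to 0.101, so the numbers do not pair the livers. Log2 fold changes that changed sign were, for the model group against controls, Nr1d2 with scaling (-0.10), Tef with the highest transcript (0.15), Dbp on omission of single livers (-0.59 to 0.31), Tef likewise (-0.59 to 0.0538) and Csnk1d with the highest transcript (-0.32). With silibinin they were Arntl (0.0206 with scaling, -0.60 to 0.23 on omission), Npas2 (-0.205 to 0.24 on omission), Clock (0.15 with scaling, 0.0042 with protein-coding transcripts, -0.15 to 0.0416 on omission), Dbp (-0.11 with voom, -0.28 to 0.41 on omission) and Per3 (0.0795 with scaling, -0.34 to 0.12 on omission). With phloridzin they were Arntl (-0.90 to 0.0372) and Nr1d2 (-0.0208 to 0.47), both on omission. The within-group correlation of Arntl and Dbp was 0.0515 with a pseudocount of 0.1, 0.68 with protein-coding transcripts (exact permutation, adjusted p = 0.095) and -0.193 to 0.187 on omission. That of Arntl and Npas2 was 0.00826 to 0.351 over settings and 0.301 to 0.704 on omission. That of Dbp and Per3 was 0.771 with the highest transcript (exact permutation, adjusted p = 0.17), 0.0761 with protein-coding transcripts, and 0.727 to 0.951 on omission, where 10 of 12 omissions lost the call. Counts of all DE genes that moved by over 1.5 times were, for the model group against controls (4594), 2657 with the highest transcript and 1382 with a fold cutoff. With silibinin (1849) they were 1082, 526 and, without model liver 2, silibinin liver 1 or silibinin liver 3, 1114, 1135 and 1172. With phloridzin (1691) they were 922, 463, 604 with only the 2 groups, and 1105, 954, 865 and 1017 without model liver 1, model liver 2, phloridzin liver 2 or phloridzin liver 3. For the silibinin group against controls (661) they were 1092 with a pseudocount of 0.1, 179 with the highest transcript, 261 with a fold cutoff and 134 to 1264 on omission. For the phloridzin high-dose group against controls (1051) they were 313, 398, 207 with only the 2 groups and down to 367 on omission, and between the drugs (3) 0 to 6. Protein-coding transcripts only and voom on recovered fragments were chosen after seeing the data. The cause of these shifts was not tested.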
